A study of Homo sapiens with 12 samples.

Results

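Mitochondrial ribosomal proteins are the nuclear-encoded proteins of the ribosome that works inside mitochondria. Members were chosen by name, as the protein-coding genes of the deposited table whose symbol is MRPL or MRPS followed by a digit. No measured value entered this rule, but earlier results of these data were known when it was set. The rule gave 78 of the 58302 genes in the table, of which 49 MRPL genes stand for the large subunit and 29 MRPS genes for the small subunit. All 78 passed the filter on low counts and were tested.

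The levels were measured by RNA sequencing in established lines of diffuse large B-cell lymphoma grown with or without selinexor, an inhibitor of XPO1, the receptor that carries many proteins and some RNAs out of the nucleus. The 4 groups were OCI-LY3 with selinexor, untreated OCI-LY3, SU-DHL6 with selinexor and untreated SU-DHL6, with 3 libraries each. The labels give every group the genotype WT, and assign OCI-LY3 to ABC-DLBCL (the activated B-cell type) and SU-DHL6 to GCB-DLBCL (the germinal centre B-cell type). Doses of 300 and 100 nM and durations of 24 and 48 h are named for the series without saying which library received which, so a difference between the lines cannot be told apart from a difference in dose or time. Each type is represented by a single line. The series' design calls the triplicates biological without saying how cultures were set up, so p-values measure only the spread between these libraries.

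The mitochondrial ribosome translates the few membrane proteins of the respiratory chain and the ATP synthase that are encoded in mitochondrial DNA. Its ribosomal RNAs come from mitochondrial DNA too, whereas all its proteins are made in the cytosol from nuclear genes and imported. Many of these proteins have bacterial counterparts, and the others are specific to mitochondria and cover or replace parts that ribosomal RNA forms in bacteria. The small subunit reads the messenger RNA, and the large subunit joins the amino acids and hands the chain to the inner membrane.

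Library totals ran from 14210200 to 16405842 counts, and the members together took between 0.380% and 0.473% of them. The B-cell markers CD79A, CD79B, PAX5 and MS4A1 were present in all 4 groups. IRF4, a marker of the activated type, averaged 60.5 and 129.8 FPKM (the deposited value, scaled to gene length and library size) in OCI-LY3 with selinexor and untreated OCI-LY3, against 17.5 and 20.7 FPKM in SU-DHL6 with selinexor and untreated SU-DHL6. The germinal centre markers MME, LMO2 and MYBL1 averaged at most 0.159 FPKM in OCI-LY3. Markers of other cells (CD3E of T cells, CD14 of monocytes, EPCAM of epithelium) averaged at most 0.237 FPKM in any group. Scaling factors (TMM, which sets the bulk of genes equal between libraries) lay between 0.86 and 0.96 in OCI-LY3 and between 0.97 and 1.23 in SU-DHL6. Pseudogenes of any kind took 8.16% to 8.45% of counts in OCI-LY3 with selinexor and 6.60% to 6.86% in untreated OCI-LY3, but 5.13% to 6.05% in SU-DHL6 with selinexor and 7.69% to 8.41% in untreated SU-DHL6; their part in the results was not tested. The 75 pseudogenes that carry an MRPL or MRPS symbol held counts equal to at most 0.489% of those of the members.

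Levels were first ordered by FPKM, the deposited value per length. The group medians of the 78 members lay between 8.44 FPKM in OCI-LY3 with selinexor and 11.8 FPKM in SU-DHL6 with selinexor. FPKM keeps total-count scaling, and the order of the groups depended on the scaling. By CPM (counts scaled to the TMM-adjusted library size), the median was lowest in SU-DHL6 with selinexor, at 41.0. It was 44.8 in OCI-LY3 with selinexor, 47.3 in untreated OCI-LY3 and 47.9 in untreated SU-DHL6. By FPKM, single members spread from 1.33 to 109 in OCI-LY3 with selinexor and from 1.88 to 161 in untreated OCI-LY3. The spread was from 2.24 to 99.3 FPKM in SU-DHL6 with selinexor and from 1.35 to 126 FPKM in untreated SU-DHL6. MRPL12, the stalk protein of the large subunit that recruits translation factors and also binds the mitochondrial RNA polymerase, was the highest on average over the 12 libraries and in both OCI-LY3 groups. Its level was 109 ± 7.84 FPKM in OCI-LY3 with selinexor and 161 ± 8.80 FPKM in untreated OCI-LY3 (SD, n = 3 each). In SU-DHL6 it was 87.2 ± 9.23 FPKM with selinexor and 112 ± 12.1 FPKM untreated. A second gene annotated on the same strand, AC139530.2, shares 68.2% of its exon bases, and how the authors assigned shared reads is not given in the sources used here. MRPL14, at the interface between the subunits, was the highest in SU-DHL6, with 99.3 ± 11.2 FPKM in SU-DHL6 with selinexor and 126 ± 9.67 FPKM in untreated SU-DHL6. MRPS18B, a small-subunit protein next in this order, had 76.9 ± 9.71 FPKM in SU-DHL6 with selinexor and 112 ± 6.39 FPKM in untreated SU-DHL6. In OCI-LY3, MRPS18B had 46.1 ± 0.883 FPKM with selinexor and 53.3 ± 0.455 FPKM untreated.

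The 3 lowest members per length were MRPL42, MRPL1 and MRPS22. MRPL1, which forms the mobile stalk beside the site where spent transfer RNA leaves, was the lowest of all members in SU-DHL6, at 2.24 ± 0.522 FPKM with selinexor and 1.35 ± 0.160 FPKM untreated. MRPL42, a mitochondria-specific protein of the large subunit, was the lowest in OCI-LY3, at 1.33 ± 0.242 FPKM with selinexor and 1.88 ± 0.141 FPKM untreated. The longest annotated transcript of MRPL42 has 15582 bases, against a median of 1722 over the members, and which length entered the FPKM is not given in the sources used here. MRPS22, a mitochondria-specific protein of the small subunit, averaged 2.16, 2.57, 2.73 and 2.12 FPKM in OCI-LY3 with selinexor, untreated OCI-LY3, SU-DHL6 with selinexor and untreated SU-DHL6.

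**Figure D1:**
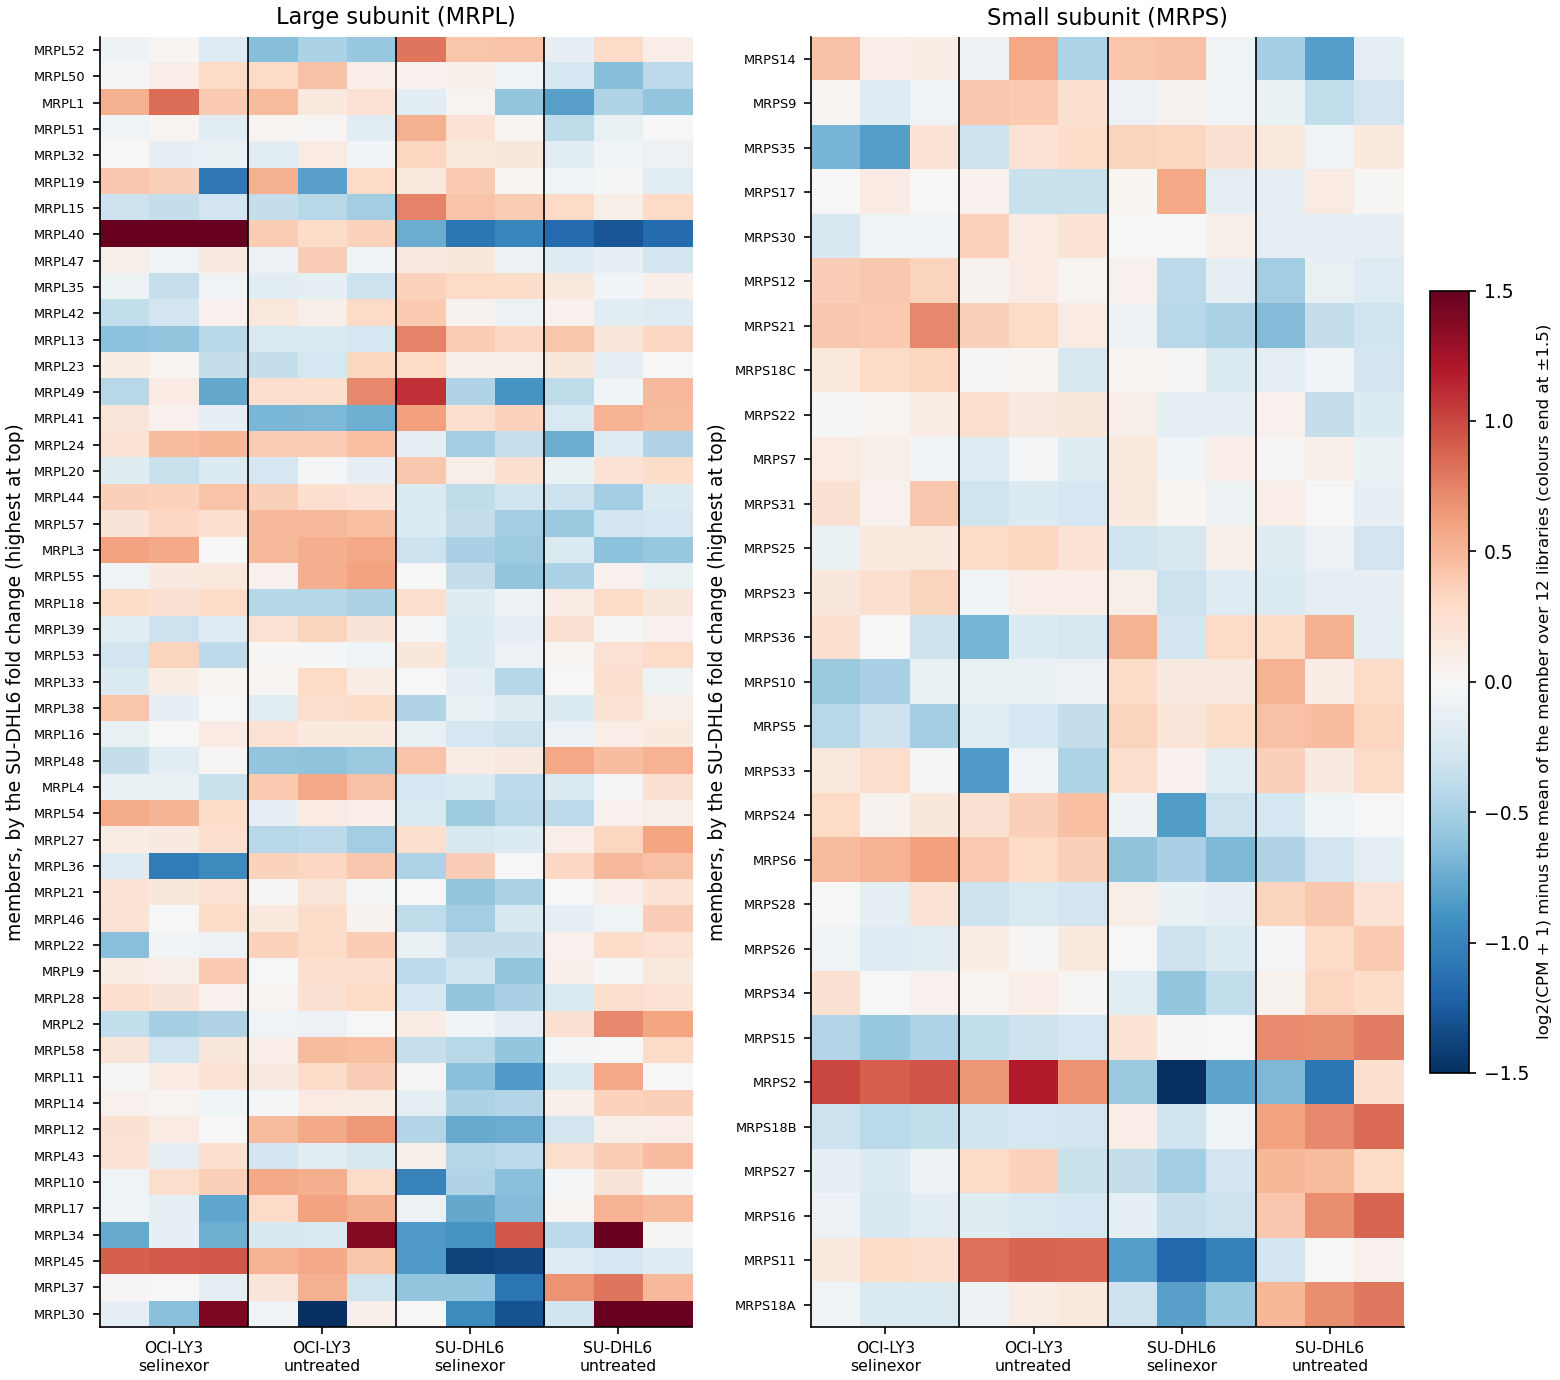
Levels of all 78 members in the 12 libraries, as log2(CPM + 1) minus the member's own mean over the libraries. The 49 large-subunit members are on the left and the 29 small-subunit members on the right, each ordered by the fold change in SU-DHL6 with the highest at the top. Columns are the 3 libraries of each group, and colours end at ±1.5. Single members, such as MRPL40 and MRPS11, differ between the groups in all 3 libraries, whereas MRPL30 and MRPL34 vary as much within a group as between groups.

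In OCI-LY3, similar numbers of members rose and fell under selinexor, and MRPL40 changed most. A member was called when its adjusted p from edgeR's quasi-likelihood test, with Benjamini-Hochberg adjustment over all 16474 genes tested, was under 0.05; levels below are CPM, counts scaled to the TMM-adjusted library size, and fold changes are on the log2 scale with their standard error (SE). By this rule 11 of 78 members rose (14.1%) and 10 fell (12.8%), against 22.2% and 22.2% of all tested genes. When libraries were scaled by total counts instead, 8 rose and 21 fell, with the median of all tested genes at -0.09. Of the 49 large-subunit members, 8 rose and 7 fell, with a median log2 fold change of -0.05, and of the 29 small-subunit members, 3 rose and 3 fell, with a median of 0.05. The median over all tested genes was 0.00. In bulk RNA, fewer cells that express a gene and less RNA per cell cannot be told apart. In 18 members every treated library lay above every untreated one, and in 21 every treated library lay below, where 28.8% and 28.7% of all genes did so.

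The largest rise in OCI-LY3 was that of MRPL40 (chr22:19431902-19436075 on GRCh38), a mitochondria-specific protein of the large subunit whose gene lies in the region of chromosome 22 lost in DiGeorge syndrome. Its level was 121, 125 and 126 CPM in the selinexor libraries and 45.6, 42.2 and 44.6 CPM in the untreated ones. The groups lay far apart, with replicates within a few CPM of each other, and the log2 fold change was 1.49 ± 0.10 (adjusted p = 8.49e-08). MRPL41 (chr9:137551199-137552555), another mitochondria-specific protein of the large subunit, had 48.2, 44.4 and 38.7 CPM with selinexor and 25.9, 26.3 and 25.1 CPM untreated. All treated libraries lay above the untreated ones, and it rose by 0.76 ± 0.18 (adjusted p = 0.00272). MRPL18 (chr6:159789812-159798436), the counterpart of the bacterial protein that holds the small ribosomal RNA of the central protuberance, had 50.9, 49.5 and 51.6 CPM with selinexor and 30.9, 31.0 and 29.8 CPM untreated. It rose by 0.73 ± 0.12 (adjusted p = 1.51e-04), again without overlap.

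MRPL27 (chr17:50367857-50373214), whose bacterial counterpart reaches towards the site of peptide bond formation, had 40.5, 41.1 and 44.7 CPM with selinexor and 27.7, 28.1 and 25.6 CPM untreated in OCI-LY3. It rose by 0.63 ± 0.15 (adjusted p = 0.00353), and the groups did not overlap. Among small-subunit members the largest rises were those of the mitochondria-specific MRPS33 and MRPS31. MRPS33 had 24.5, 26.3 and 22.1 CPM with selinexor and 11.6, 20.9 and 15.6 CPM untreated, a rise of 0.60 ± 0.18 (adjusted p = 0.0160). MRPS33 was not called without the second selinexor library or without the first untreated library (adjusted p up to 0.0750 over the alternatives). MRPS31 had 44.8, 39.9 and 50.9 CPM with selinexor and 30.9, 33.0 and 31.9 CPM untreated, a rise of 0.50 ± 0.11 (adjusted p = 0.00247). Both separated the treated from the untreated libraries.

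The largest fall in OCI-LY3 was that of MRPL36 (chr5:1798386-1801366), the shortest of the conserved large-subunit proteins known in bacteria. It had 17.3, 9.10 and 9.81 CPM with selinexor and 25.7, 24.99 and 26.7 CPM untreated, a log2 fold change of -1.10 ± 0.24 (adjusted p = 0.00212). The untreated libraries agree within 2 CPM, and the first treated library lay between them and the other treated ones. MRPL17 (chr11:6680782-6683401), a conserved protein near the outlet of the tunnel through which the new chain leaves, had 35.1, 32.7 and 20.6 CPM with selinexor and 44.4, 55.5 and 52.8 CPM untreated. It fell, at -0.79 ± 0.22 on the log2 scale, the third treated library being the lowest (adjusted p = 0.0122). MRPL4 and MRPL22, which line that tunnel in bacteria, fell, at -0.65 ± 0.12 and -0.58 ± 0.15 (adjusted p = 4.31e-04 and 0.00507).

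MRPL4 had 122, 122 and 104 CPM with selinexor and 173, 195 and 179 CPM untreated. MRPL22 had 23.1, 35.5 and 34.3 CPM with selinexor and 46.4, 44.7 and 47.8 CPM untreated. In both, all treated libraries lay below all untreated ones. MRPS11 (chr15:88467453-88480773), a conserved protein of the platform of the small subunit, had 64.5, 70.4 and 69.6 CPM with selinexor and 104, 107 and 106 CPM untreated, and its log2 fold change of -0.63 ± 0.11 rested on replicates that differed by less than 7 CPM (adjusted p = 4.58e-04). MRPL39, a mitochondria-specific protein, completed the 6 largest falls at -0.49 ± 0.10 (adjusted p = 0.00169).

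Promoter letters are shown because of a sequence bound by ETS-family factors. Among the members called in OCI-LY3, it was found in the promoters of many that rose and, where a promoter was available, of none that fell. RefSeq promoters (GRCh38.p14, from 250 bases before to 50 bases after the start) were available for 69 of the 78 members and searched on both strands. The ETS letters CCGGAAG were in 42.0% of the member promoters, against 19.7% of 9968 promoters of tested protein-coding genes and 10.7% of all 27305 promoters. The YY1 letters AAGATGGC were in 29% of member promoters, against 5.5% and 3.03%, and the palindromic NRF1 motif in 1.45%, against 2.37% and 1.36%. In OCI-LY3 the ETS letters were in 8 of 11 members that rose, 0 of 9 that fell and 21 of 49 not called. In SU-DHL6 they were in 3 of 6 that rose, 9 of 23 that fell and 17 of 40 not called. The YY1 letters showed another split, with 2 of 11 that rose, 3 of 9 that fell and 15 of 49 not called in OCI-LY3. For SU-DHL6 the YY1 counts were 4 of 6, 6 of 23 and 10 of 40 in the same order. The search and the calls were compared after both were known, without a test, and a match in this window is a description of letters only. Shown are 3 members that rose in OCI-LY3 with the ETS letters near the start (MRPL52, MRPS31 and MRPL54) and 2 that fell (MRPL12 and MRPL22), each as 150 bases that end 5 bases after the RefSeq start, 5′ to 3′ on the gene's strand, with ETS and YY1 letters on either strand in capitals. The rise of MRPL54 in OCI-LY3 was 0.42 ± 0.14 (adjusted p = 0.0261), a call lost in 4 of 23 alternatives (adjusted p up to 0.109). The regions shown are chr14:22829742-22829891 (+), chr13:40771186-40771335 (-), chr19:3762537-3762686 (+), chr17:81703222-81703371 (+) and chr5:154940928-154941077 (+).
MRPL52: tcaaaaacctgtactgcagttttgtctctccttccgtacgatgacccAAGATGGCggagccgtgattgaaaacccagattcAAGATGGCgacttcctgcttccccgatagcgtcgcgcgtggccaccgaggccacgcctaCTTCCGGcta
MRPS31: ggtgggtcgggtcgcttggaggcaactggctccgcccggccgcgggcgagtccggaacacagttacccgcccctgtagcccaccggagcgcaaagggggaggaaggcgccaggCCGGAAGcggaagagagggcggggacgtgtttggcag
MRPL54: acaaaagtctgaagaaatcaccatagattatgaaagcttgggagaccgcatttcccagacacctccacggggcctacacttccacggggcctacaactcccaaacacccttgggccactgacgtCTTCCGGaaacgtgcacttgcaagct
MRPL12: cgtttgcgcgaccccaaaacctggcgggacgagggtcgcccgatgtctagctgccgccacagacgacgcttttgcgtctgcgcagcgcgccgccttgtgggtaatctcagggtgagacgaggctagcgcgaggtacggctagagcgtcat
MRPL22: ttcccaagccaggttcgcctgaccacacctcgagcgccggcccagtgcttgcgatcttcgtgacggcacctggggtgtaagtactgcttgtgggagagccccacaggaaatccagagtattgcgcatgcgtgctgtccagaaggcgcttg

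In SU-DHL6 more members fell than rose under selinexor. Of the 78 members, 27 fell (34.6%, against 22.8% of all tested genes) and 7 rose (8.97%, against 20.4%), and the median log2 fold change was -0.21, against 0.00 over all tested genes. This direction depends on the scaling: with total counts, 15 fell and 25 rose, while the median of all tested genes itself moved to 0.27. Relative to the median of all genes, the large subunit stood at -0.26 under both scalings and the small subunit at -0.13 and -0.14. In 25 members all treated libraries lay below all untreated ones, and in 13 above, against 25.6% and 25.5% of all tested genes. The number that rose also depended on single libraries. It was 1 without the first selinexor library, 4 without the first untreated library and 3 without the second untreated library, while between 18 and 30 members fell whichever library was left out.

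Of the large-subunit members, 17 fell and 6 rose, with a median of -0.26. Of the small-subunit members, 10 fell and 1 rose, with a median of -0.13. The share that fell was thus close in both (34.7% and 34.5%). MRPL37 (chr1:54184041-54225464), a mitochondria-specific protein of the large subunit, fell most. It had 101, 101 and 70.6 CPM with selinexor and 244, 268 and 213 CPM untreated, with no overlap, and the log2 fold change was -1.41 ± 0.19 (adjusted p = 7.63e-05). MRPS18A (chr6:43671303-43687791) had 81.1, 56.8 and 67.7 CPM with selinexor and 142, 164 and 175 CPM untreated, a log2 fold change of -1.23 ± 0.13 (adjusted p = 4.39e-06). It carries a small-subunit symbol but sits in the large subunit in the known structures. Its gene shares 47.0% of its exon bases with RSPH9 on the opposite strand, and whether the counting used strand is not given in the sources used here.

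MRPL45 (chr17:38297023-38323218), which stands at the tunnel outlet and ties the ribosome to the inner membrane, had 29.6, 20.2 and 20.5 CPM with selinexor and 47.1, 45.1 and 47.4 CPM untreated. The untreated libraries agree within 3 CPM and lie above all treated ones, and the log2 fold change was -0.99 ± 0.13 (adjusted p = 3.50e-05). MRPS11 had 32.3, 25.2 and 28.3 CPM with selinexor and 47.4, 58.6 and 60.8 CPM untreated, a log2 fold change of -0.96 ± 0.12 (adjusted p = 1.65e-05). MRPS16 (chr10:73248843-73252693), a conserved small-subunit protein whose loss causes a human respiratory chain disease, had 40.5, 35.0 and 35.6 CPM with selinexor and 59.1, 73.0 and 82.6 CPM untreated. It fell, at -0.95 ± 0.12 on the log2 scale without overlap (adjusted p = 2.53e-05). MRPL17, which also fell in OCI-LY3, had 33.9, 20.8 and 22.6 CPM with selinexor and 37.0, 52.4 and 50.7 CPM untreated. Its first treated library came close to its first untreated one, and it fell, at -0.86 ± 0.22 (adjusted p = 0.00766).

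The 7 members that rose in SU-DHL6 did so by 0.29 to 0.76 on the log2 scale, and each of these calls was lost without at least 1 library. MRPS14, a conserved small-subunit protein near the decoding site, had 42.9, 43.7 and 30.5 CPM with selinexor and 22.4, 17.6 and 29.1 CPM untreated, a rise of 0.76 ± 0.26 (adjusted p = 0.0343). The third treated library lay within 2 CPM of the highest untreated one, and it was not called without either of the first 2 libraries of either group (adjusted p up to 0.132). MRPL52, a mitochondria-specific protein, had 74.5, 56.9 and 57.2 CPM with selinexor and 38.7, 51.9 and 45.3 CPM untreated, a rise of 0.47 ± 0.13 (adjusted p = 0.0107) that missed the threshold without the first selinexor library (adjusted p up to 0.0632). MRPL50 and MRPL51, also specific to mitochondria, rose by 0.47 ± 0.14 and 0.44 ± 0.13 (adjusted p = 0.0136 and 0.0157). The first was not called without the second untreated library, and the other was not called without the first selinexor or first untreated library. MRPL32, which an inner-membrane protease trims before it is assembled, rose by 0.32 ± 0.10 (adjusted p = 0.0212), again not without the first library of either group. MRPL15, a conserved core protein, rose by 0.30 ± 0.11 (adjusted p = 0.0403), a call lost in 10 of 23 alternatives. The call of MRPL40 in this line (0.29 ± 0.11, adjusted p = 0.0444) was lost in 14 of 23.

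**Figure D2:**
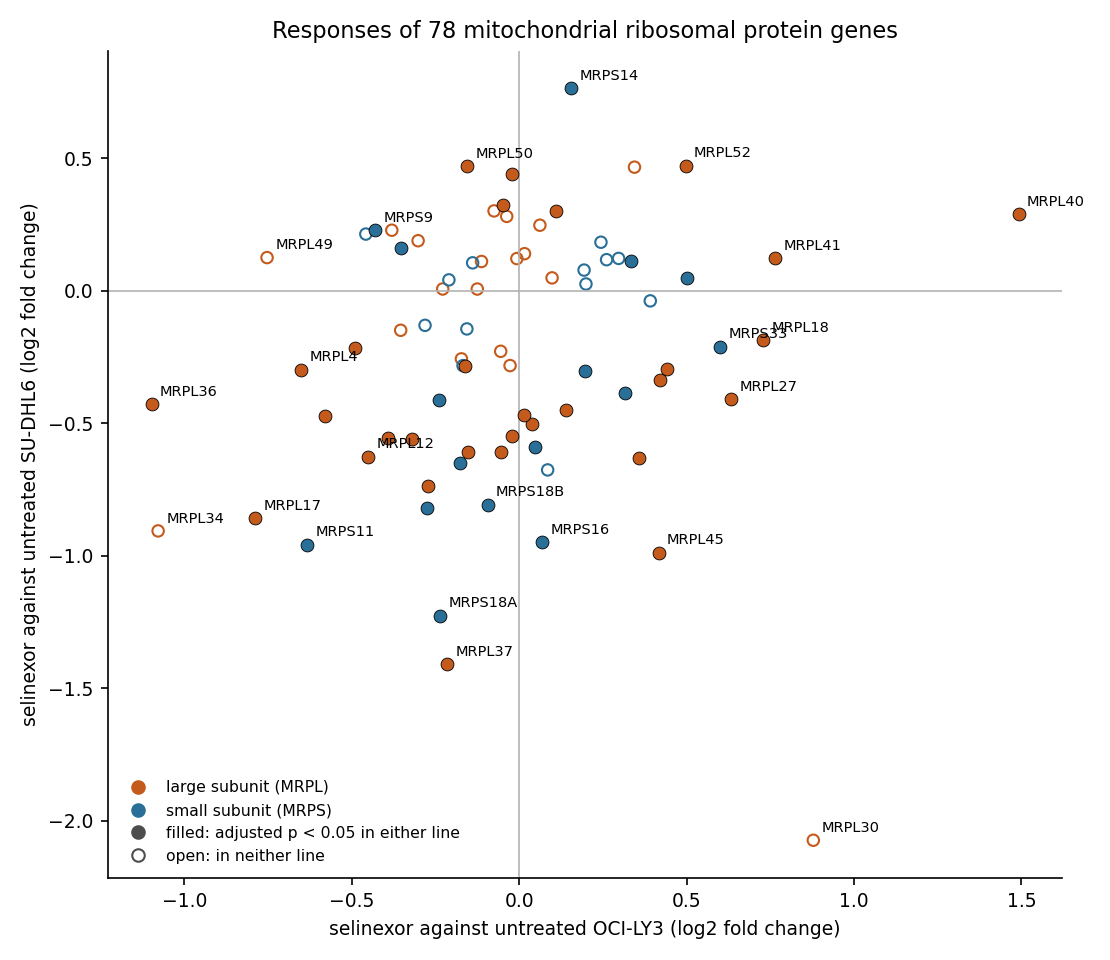
Log2 fold changes of the 78 members under selinexor in OCI-LY3 (horizontal) and SU-DHL6 (vertical), orange for the large and blue for the small subunit. Filled points were called in at least 1 line and open points in neither. MRPL40 stands alone at the right, at 1.49 in OCI-LY3, and MRPL37 and MRPS18A are the lowest called members in SU-DHL6; with scaling by total counts the points move up in SU-DHL6, where the median of all genes moves to 0.27.

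The 2 lines can be set side by side without being pooled, since they share no library. Both lines called 2 members higher, MRPL40 and MRPL52, and 5 lower, MRPL2, MRPL12, MRPL17, MRPL22 and MRPS11. MRPL27 and MRPL45 rose in OCI-LY3 and fell in SU-DHL6, 0 members did the reverse, and 32 were called in neither line. MRPL2, a conserved core protein of the large subunit, fell, at -0.39 ± 0.12, in OCI-LY3 and -0.56 ± 0.12 in SU-DHL6. The stalk protein MRPL12 fell, at -0.45 ± 0.12 and -0.63 ± 0.12 in the same order. Over all 78 members the fold changes of the 2 lines had a Spearman correlation of 0.19 (Pearson 0.14). Over all tested genes it was 0.19 (Pearson 0.23). The sign was the same in 44 of 78 members (56.4%), close to the 53.4% of all tested genes. Joint calls in both lines were not counted over all tested genes. Of the members, 3 in each line reached an absolute log2 fold change of 1 (3.85%), against 22.4% of tested genes in OCI-LY3 and 20.5% in SU-DHL6. Among them, MRPL34 in OCI-LY3 and MRPL30 in SU-DHL6 did not pass the test. Only 12705 of the 16474 tested genes are protein-coding, as all members are, and the share among genes of similar level was not counted.

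The responses of the lines were compared directly by the difference of the log2 fold changes, SU-DHL6 minus OCI-LY3. By this test 21 members responded lower in SU-DHL6 (26.9%, against 19.9% of all tested genes) and 5 higher (6.41%, against 17%). With total counts the split turned to 8 lower and 21 higher, with the median of all tested genes at 0.35 in place of -0.02. Of the large-subunit members 12 were lower and 3 higher, and of the small-subunit members 9 and 2. MRPL45 had the largest called difference, -1.41 ± 0.18 (adjusted p = 4.72e-05). In OCI-LY3 it had 102, 103 and 104 CPM with selinexor and 78.1, 80.9 and 72.5 CPM untreated, so that treated libraries lay above untreated ones in OCI-LY3 and below them in SU-DHL6. Its rise in OCI-LY3 (0.42 ± 0.13, adjusted p = 0.0158) missed the threshold without the third untreated library and with total counts (adjusted p up to 0.0649), while its fall in SU-DHL6 and the difference were called in every alternative fit at the threshold of 0.05.

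MRPL40 followed with -1.20 ± 0.15 (adjusted p = 3.40e-05), its level in SU-DHL6 being 20.4, 15.9 and 17.1 CPM with selinexor and 15.0, 13.7 and 15.1 CPM untreated. The SU-DHL6 groups lay within a few CPM of each other and far under those of OCI-LY3. MRPL37 differed by -1.20 ± 0.27 (adjusted p = 0.00374), and its OCI-LY3 libraries overlapped at 154, 154 and 139 CPM with selinexor and 173, 222 and 124 CPM untreated. MRPL27 differed by -1.04 ± 0.21 (adjusted p = 0.00154). In SU-DHL6 it had 44.7, 31.3 and 32.2 CPM with selinexor and 40.2, 47.1 and 56.6 CPM untreated; these groups overlap, and its call there (-0.41 ± 0.15, adjusted p = 0.0378) was lost in 11 of 23 alternatives. MRPS16 differed by -1.02 ± 0.17 (adjusted p = 3.73e-04), with 41.8, 37.6 and 39.9 CPM with selinexor and 39.1, 37.8 and 36.9 CPM untreated in OCI-LY3.

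The 5 members that responded higher in SU-DHL6 were MRPS9, MRPL50, MRPL42, MRPS30 and MRPL13. This count was 3 without OCI-LY3 selinexor library 1 or 2 or untreated library 2 or 3, and 2 without the second untreated SU-DHL6 library. MRPS9, a conserved protein of the small subunit, fell in OCI-LY3, with 25.3, 21.4 and 23.7 CPM with selinexor and 33.0, 32.7 and 29.2 CPM untreated (-0.43 ± 0.12, adjusted p = 0.00750). In SU-DHL6 it had 23.0, 25.7 and 23.9 CPM with selinexor and 22.9, 18.9 and 20.2 CPM untreated, where it did not pass the test. The difference was 0.66 ± 0.16 (adjusted p = 0.00574) and was called in every alternative fit at the threshold of 0.05, which was not so for the other 4. MRPS30, which despite its symbol belongs to the large subunit, had 56.7, 64.1 and 64.1 CPM with selinexor and 85.5, 73.3 and 77.2 CPM untreated in OCI-LY3 and fell, at -0.35 ± 0.09 (adjusted p = 0.00677). Its difference between lines was 0.51 ± 0.13 (adjusted p = 0.00696). With libraries corrected for GC content and length, neither held: the OCI-LY3 fold change was -0.21 (adjusted p = 0.122) and the difference 0.0683 (adjusted p = 0.784). Of the 5, MRPS9 alone was called higher under that correction. Differences of 0.62 ± 0.20 for MRPL50, 0.61 ± 0.21 for MRPL42 and 0.49 ± 0.18 for MRPL13 were nearer the threshold (adjusted p = 0.0222, 0.0348 and 0.0415).

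**Figure D3:**
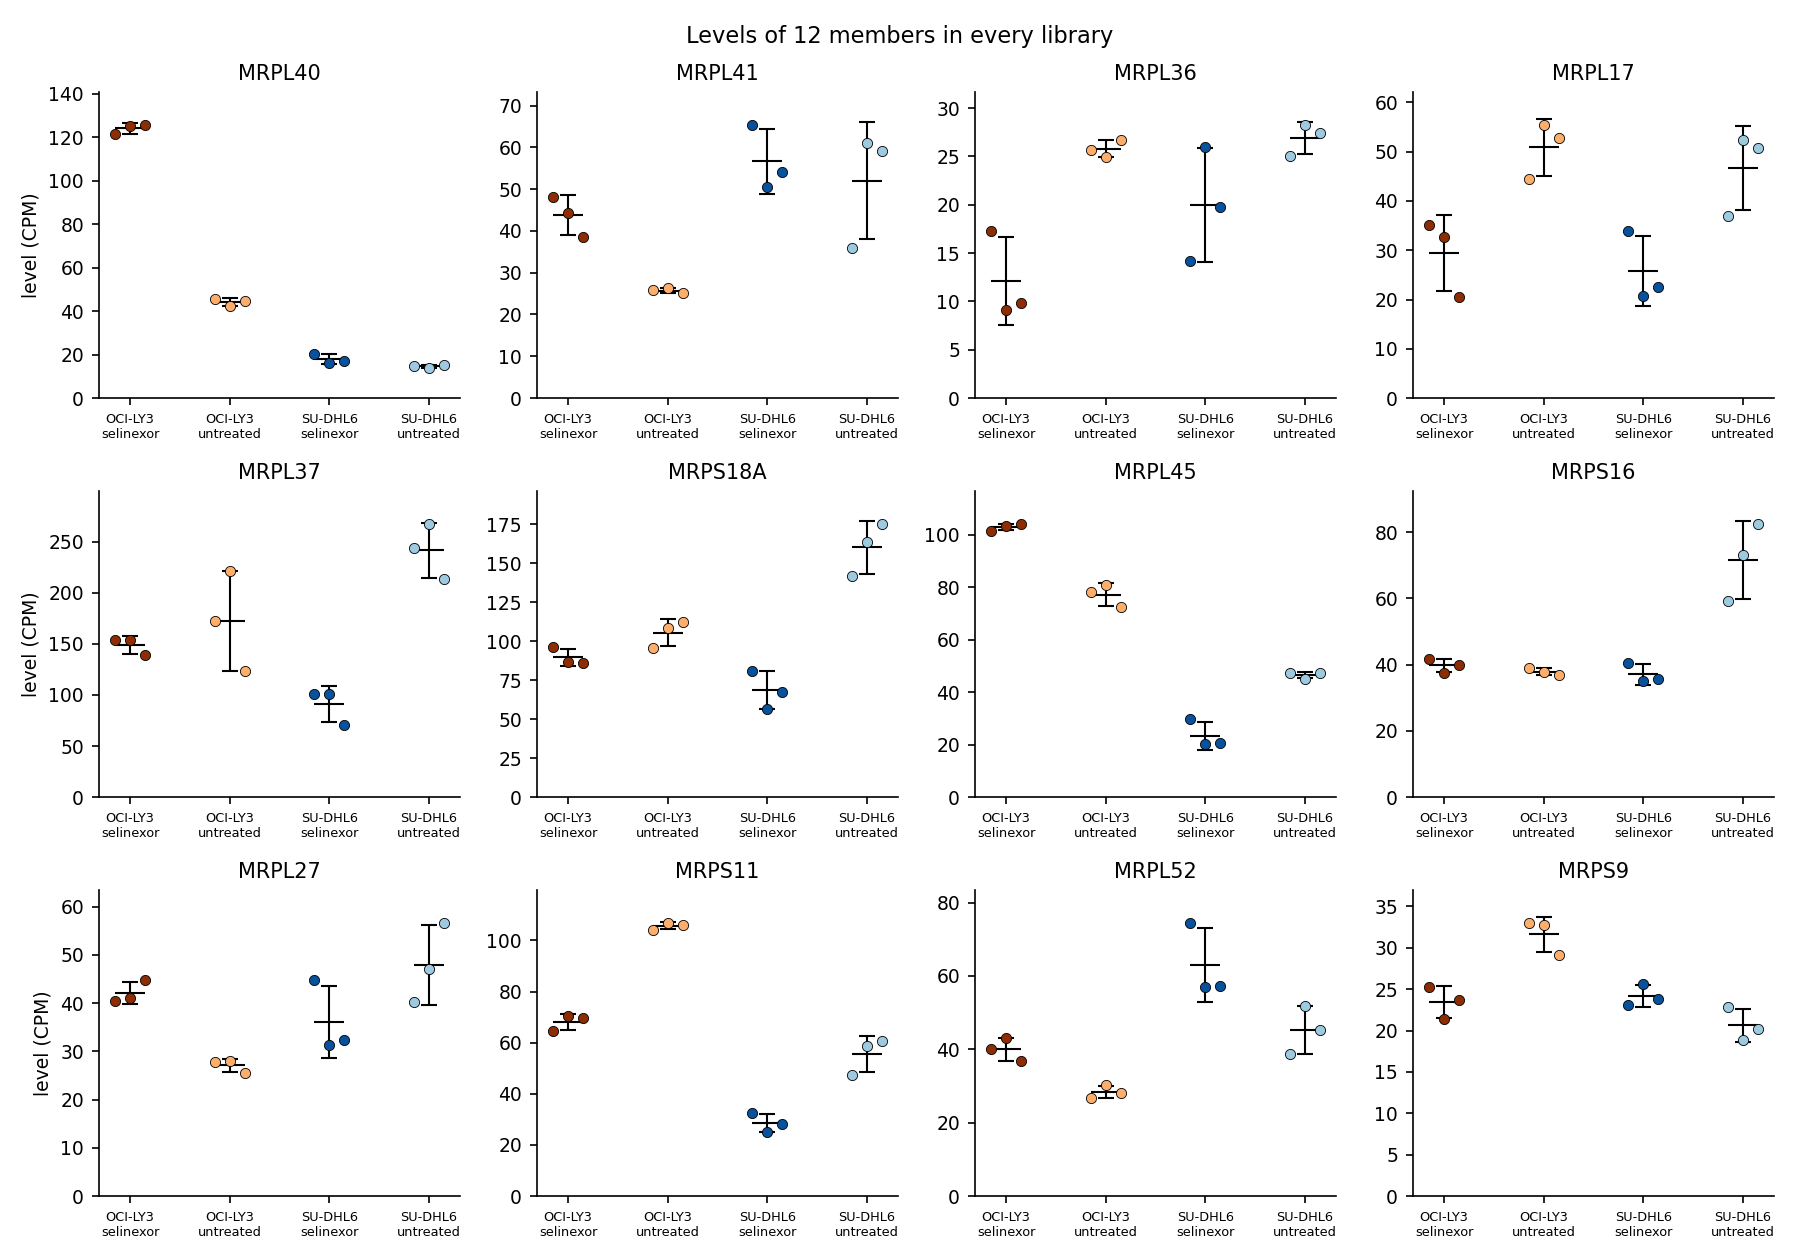
Levels of 12 members in every library in CPM, with selinexor groups left of their untreated groups within each line; points are libraries, horizontal bars are group means and vertical bars are ± SD (n = 3). MRPL40 and MRPL41 are higher in all treated OCI-LY3 libraries, MRPL37, MRPS18A, MRPL45 and MRPS16 are lower in all treated SU-DHL6 libraries, and MRPS11 is lower in all treated libraries of both lines.

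Without the drug the lines differed in 42 of 78 members, against 67.3% of all tested genes. Untreated OCI-LY3 was higher than untreated SU-DHL6 in 22 members (28.2%, against 33.6%) and lower in 20 (25.6%, against 33.7%). In 26 members every untreated OCI-LY3 library lay above every untreated SU-DHL6 library, and in 21 below, against 35.6% and 35.4% of all tested genes. The large subunit had 12 higher and 11 lower members with a median of 0.10, and the small subunit 10 higher and 9 lower with a median of -0.13. MRPL40 showed the largest called difference, 1.60 ± 0.11 (adjusted p = 8.31e-09), with the libraries given above. MRPL1 had 11.1, 8.57 and 9.04 CPM in untreated OCI-LY3 and 3.93, 5.28 and 4.77 CPM in untreated SU-DHL6, a difference of 1.03 ± 0.21 (adjusted p = 6.35e-04). MRPL3, a conserved protein close to the site of peptide bond formation, had 109.5, 114 and 117 CPM in untreated OCI-LY3 and 67.0, 50.3 and 52.2 CPM in untreated SU-DHL6, a difference of 1.01 ± 0.15 (adjusted p = 4.33e-05). The groups of all 3 genes did not overlap. MRPS11 differed by 0.93 ± 0.11 (adjusted p = 5.31e-06).

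MRPS2, a conserved small-subunit protein, had 131, 190.3 and 133 CPM in untreated OCI-LY3 and 51.6, 38.5 and 98.0 CPM in untreated SU-DHL6. Its groups did not overlap, but the SU-DHL6 libraries spread over more than 2-fold, and the call (1.28 ± 0.49, adjusted p = 0.0454) was lost in 12 of 22 alternatives. Lower in untreated OCI-LY3 were MRPL48, a mitochondria-specific protein, with 21.5, 21.3 and 22.1 CPM in untreated OCI-LY3 and 49.9, 45.7 and 47.8 CPM in untreated SU-DHL6 (-1.14 ± 0.12, adjusted p = 1.26e-06). MRPS15, a conserved small-subunit protein, had 57.6, 59.95 and 61.9 CPM in untreated OCI-LY3 and 123, 122 and 127 CPM in untreated SU-DHL6, where the replicates of each line agree within 7 CPM (-1.05 ± 0.09, adjusted p = 9.81e-08). MRPL41 was lower, at -1.02 ± 0.18, in untreated OCI-LY3, with 25.9, 26.3 and 25.1 CPM, than in untreated SU-DHL6, with 36.0, 61.0 and 59.2 CPM (adjusted p = 1.31e-04). MRPS18B and MRPS16 were lower in untreated OCI-LY3, at -1.01 ± 0.10 and -0.92 ± 0.12 (adjusted p = 8.11e-07 and 1.04e-05).

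The balance of the subunits moved little. The summed level of the 49 large-subunit members was 2573 ± 48.6 CPM in OCI-LY3 with selinexor and 2692 ± 84.3 CPM in untreated OCI-LY3, and that of the 29 small-subunit members was 1784 ± 50.7 CPM and 1837 ± 83.2 CPM in the same groups (SD, n = 3 each). The ratio of large to small was 1.44 ± 0.06 with selinexor and 1.47 ± 0.05 untreated, and the libraries of the groups overlapped. In SU-DHL6 the large subunit summed to 2379, 2016 and 1946 CPM with selinexor and to 2330, 2753 and 2676 CPM untreated, so that the first library of each group lay nearest to the other group and the groups overlapped. The small subunit summed to 1678, 1386 and 1508 CPM with selinexor and to 1867, 1972 and 2072 CPM untreated, without overlap. The ratio of large to small was 1.39 ± 0.09 in SU-DHL6 with selinexor and 1.31 ± 0.08 in untreated SU-DHL6, with overlapping libraries. The mean log2 level of the large subunit minus that of the small was -0.22 ± 0.05 in OCI-LY3 with selinexor and -0.17 ± 0.08 untreated. In SU-DHL6 it was -0.25 ± 0.07 with selinexor and -0.24 ± 0.10 untreated. Within each line the difference in this value and in the ratio was smaller than the larger SD of its groups.

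**Figure D4:**
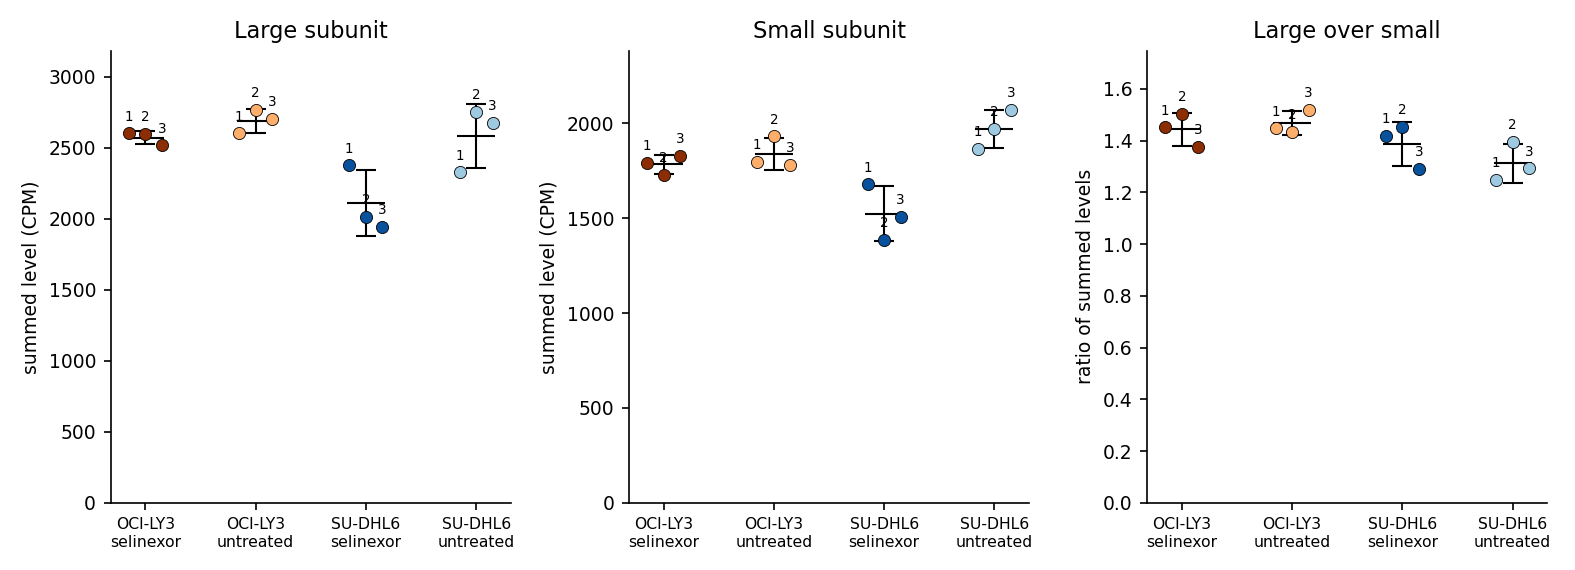
Summed level of the 49 large-subunit members (left), of the 29 small-subunit members (middle) and their ratio (right) in each library, in CPM and as a ratio, with the library number beside each point; horizontal bars are group means and vertical bars ± SD (n = 3). The ratios lie between 1.25 and 1.52, and the groups of each line overlap in the ratio; the sums are lower in SU-DHL6 with selinexor after TMM scaling, and with total counts the median log2 changes there were 0.0048 (large) and 0.13 (small).

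Members with and without a bacterial counterpart were counted apart, leaving out MRPS36. In OCI-LY3, 3 of 45 conserved members rose and 8 fell, and 8 of 32 mitochondria-specific members rose (25%) and 2 fell, against 22.2% of all tested genes each way. The medians were -0.05 and -0.07. With total counts, 2 conserved members rose and 13 fell in OCI-LY3, and 6 specific members rose and 8 fell. In SU-DHL6, 3 of 45 conserved members rose and 17 fell, and 4 of 32 specific members rose and 10 fell, with medians of -0.28 and -0.18, against 20.4% and 22.8% of all tested genes. With total counts, 14 conserved members rose and 8 fell in SU-DHL6, and 11 specific members rose and 7 fell. The stalk base proteins MRPL10 and MRPL11 and the stalk protein MRPL12 all fell in SU-DHL6, at -0.74 ± 0.15, -0.61 ± 0.23 and -0.63 ± 0.12 (adjusted p = 0.00126, 0.0480 and 9.18e-04). MRPL11 was called by a narrow margin and lost the call in 18 of 23 alternatives. In OCI-LY3 only MRPL12 of these fell (-0.45 ± 0.12, adjusted p = 0.00790); the difference between the lines did not pass the test for any of them.

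The 3 MRPS18 genes are paralogs that take different places in the ribosome. MRPS18C, the one that matches the bacterial position, had 19.8, 19.4 and 16.5 CPM with selinexor and 17.4, 18.6 and 15.5 CPM untreated in SU-DHL6, with overlap and no call. MRPS18B had 192, 146 and 171 CPM with selinexor and 273, 294 and 323 CPM untreated, and fell, at -0.81 ± 0.10 (adjusted p = 2.73e-05), as MRPS18A did. In OCI-LY3 MRPS18A and MRPS18B were not called, with log2 fold changes of -0.24 ± 0.13 and -0.09 ± 0.10, and MRPS18C was called higher at 0.33 ± 0.13 (adjusted p = 0.0477), a call lost in 11 of 23 alternatives. The difference between the lines passed the test for MRPS18A (-0.99 ± 0.18, adjusted p = 6.96e-04) and MRPS18B (-0.71 ± 0.15, adjusted p = 0.00163) and not for MRPS18C (-0.22 ± 0.18).

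MRPL58, a peptide-releasing enzyme built into the large subunit, fell in SU-DHL6, at -0.56 ± 0.15 (adjusted p = 0.00901). Its level was 20.8, 19.8 and 17.5 CPM with selinexor and 26.4, 26.7 and 32.8 CPM untreated. The call was lost without the third untreated library and with total counts. MRPS12, which helps to check the codon in the decoding site, was called in neither line (0.30 ± 0.12 in OCI-LY3 and 0.12 ± 0.12 in SU-DHL6) and was higher in untreated OCI-LY3 than in untreated SU-DHL6 by 0.34 ± 0.13 (adjusted p = 0.0251), a call lost without the second untreated OCI-LY3 library, without the first untreated SU-DHL6 library and with GC and length correction (0.13, adjusted p = 0.201). MRPS36 carries a small-subunit symbol but is known as a subunit of the alpha-ketoglutarate dehydrogenase complex. It was called in neither line (0.39 ± 0.25 in OCI-LY3 and -0.04 ± 0.24 in SU-DHL6).

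A set of 7 members varied at least 2-fold between the 3 libraries of a group: MRPL19, MRPL30, MRPL34, MRPL49, MRPS2, MRPS14 and MRPS35. MRPL30, a conserved large-subunit protein, had 19.3, 9.51 and 7.22 CPM in SU-DHL6 with selinexor and 15.5, 72.3 and 63.7 CPM in untreated SU-DHL6. Its groups overlap, and its log2 fold change of -2.07 ± 0.80, the lowest of all members, did not pass the test (adjusted p = 0.0661). Genes on the same strand share 32.6% of its exon bases. MRPL34 had 11.7, 18.7 and 11.9 CPM in OCI-LY3 with selinexor and 17.2, 17.3 and 55.1 CPM in untreated OCI-LY3, where a single untreated library stood apart, and did not pass the test (-1.08 ± 0.83). MRPL49 had 72.8, 24.2 and 17.7 CPM in SU-DHL6 with selinexor and 25.4, 32.6 and 47.2 CPM untreated, its first treated library being the highest of all. Exon bases are shared with another gene by 41 of the 78 members, on the same strand by 16.

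Positions were compared because many members lie beside another gene. A gene that starts within 1000 bases and runs the other way was present for 17 members (21.8%), against 10.0% of 12705 tested protein-coding genes. Of the 16 such pairs, both genes were called in 4 in OCI-LY3, 3 of them in the same direction (MRPL41 with PNPLA7, MRPL54 with APBA3 and MRPS18C with HELQ). In SU-DHL6 both were called in 5, 4 of them in the same direction (MRPL10 with LRRC46, MRPL27 with EME1, MRPL46 with MRPS11 and MRPL50 with ZNF189). The same counts over other divergent pairs were not made, and 44.4% of all tested genes were called in OCI-LY3 and 43.2% in SU-DHL6. MRPL46 and MRPS11 are such a pair themselves, with starts 34 bases apart on chromosome 15. MRPS11 fell in both lines, whereas the mitochondria-specific MRPL46 stood at 0.02 ± 0.15 in OCI-LY3 (adjusted p = 0.955) and fell, at -0.47 ± 0.15, in SU-DHL6 (adjusted p = 0.0195). The difference between these genes was not tested. EME1, which encodes a subunit of a DNA junction-cutting enzyme and starts 6 bases from MRPL27, fell, at -1.39 ± 0.21, in OCI-LY3, where MRPL27 rose, and at -0.92 ± 0.21 in SU-DHL6. SKA3, a kinetochore gene that starts 43 bases from MRPL57, fell, at -1.45 ± 0.13, in OCI-LY3 and at -1.71 ± 0.13 in SU-DHL6. MRPL57 stood at -0.23 ± 0.11 and 0.01 ± 0.11 and was called in neither line. TCP1, a chaperonin gene that starts 63 bases from MRPL18, stood at -0.11 ± 0.10 in OCI-LY3, where MRPL18 rose, and rose by 0.44 ± 0.10 in SU-DHL6, where MRPL18 was not called (-0.19 ± 0.11). Beside MRPL36, 34 bases away, NDUFS6 of respiratory complex I stood at -0.17 ± 0.19 in OCI-LY3, where MRPL36 fell.

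On chromosome 6, 5 members lie within chr6:30617709-44127457, the span of MRPS18B, MRPL2, MRPS10, MRPS18A and MRPL14. In SU-DHL6, 4 of these 5 fell, against 32.4% of the 259 other tested genes of the span and 22.8% of all tested genes. In untreated OCI-LY3, 4 of 5 were lower than in untreated SU-DHL6, against 74.1% of the other genes of the span and 33.7% of all tested genes. Most other tested genes of the span were thus lower there too.

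The response in SU-DHL6 went with base composition. Across the 78 members the GC content of the longest transcript and the log2 fold change had a Spearman correlation of -0.43 in SU-DHL6 (-0.21 over 16415 tested genes) and of -0.09 in OCI-LY3 (0.10 over the same genes). These points share libraries and depth, and genes are not independent replicates. Members that fell in SU-DHL6 had a median GC content of 51.5%, those that rose 44.9% and those not called 46.4%. The ranges overlapped, from 35.0% (MRPL50) to 59.3% (MRPL40) among the 7 that rose and from 40.2% to 64.6% among the 27 that fell. When each library was corrected for GC content and length, 25 members fell and 7 rose in SU-DHL6. Of these, 23 and 4 were among those called without the correction: MRPL32, MRPL50 and MRPS14 were no longer called higher, nor MRPL11, MRPL16, MRPL21 and MRPS26 lower, while MRPL20, MRPS9 and MRPS12 were newly called higher and MRPL39 and MRPL48 lower. In OCI-LY3, 12 rose and 17 fell after the correction, 11 and 9 of them called before.

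**Figure D5:**
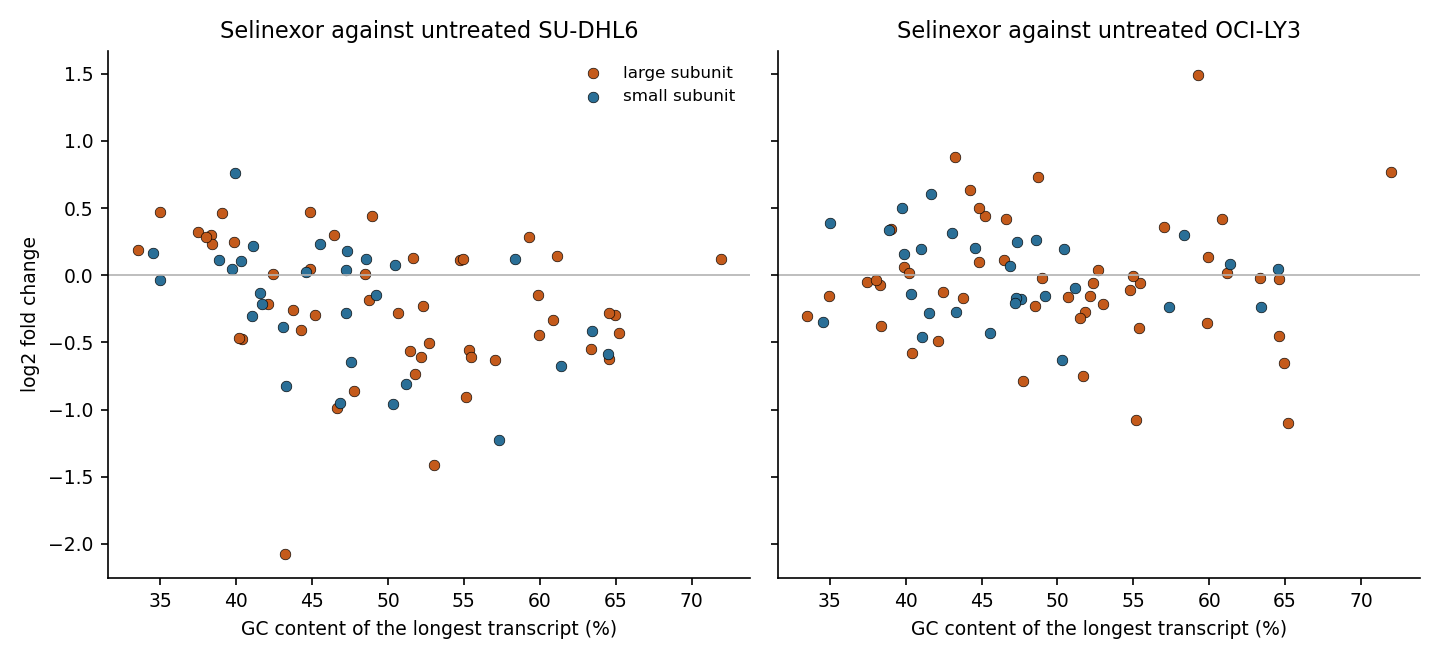
GC content of the longest annotated transcript of each of the 78 members (horizontal, %) against its log2 fold change under selinexor in SU-DHL6 (left) and OCI-LY3 (right), orange for the large and blue for the small subunit. Members of higher GC content lie lower in SU-DHL6 (Spearman -0.43), and no such slope is seen in OCI-LY3 (Spearman -0.09).

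Other genes of mitochondrial translation were counted from lists written beside the members, with earlier results of these data known. Of 5 ribosomal proteins with other symbols (DAP3, CHCHD1, AURKAIP1, PTCD3 and GADD45GIP1), 0 were called in OCI-LY3 by edgeR, and 0 had an unadjusted p under 0.05. In SU-DHL6 2 fell: DAP3, a small-subunit protein with GTP-binding activity, at -0.53 ± 0.11, and AURKAIP1, a small-subunit protein, at -0.55 ± 0.13 (adjusted p = 0.00175 and 0.00398). Both differed between the lines (-0.55 ± 0.16 and -0.56 ± 0.19). In SU-DHL6 the share of the 5 that fell was 40% and 0 rose, against 22.8% and 20.4% of all tested genes. With total counts, 1 of the 5 rose and 0 fell in SU-DHL6 by edgeR. Of 25 assembly and RNA-modifying factors, 6 rose (24%) and 2 fell in OCI-LY3, against 22.2% of all tested genes each way, and 1 rose and 12 fell (48%) in SU-DHL6, against 20.4% and 22.8%, with medians of -0.02 and -0.31. With total counts, 5 rose and 7 fell in OCI-LY3 and 6 rose and 5 fell in SU-DHL6. NOA1, a GTPase of small-subunit assembly, fell, at -1.01 ± 0.10, in SU-DHL6 (adjusted p = 2.08e-06) and stood at -0.02 ± 0.10 in OCI-LY3. YBEY, an RNA endonuclease of the small subunit, rose by 1.40 ± 0.14 in OCI-LY3 and fell, at -0.77 ± 0.14, in SU-DHL6 (adjusted p = 2.41e-06 and 3.95e-04). FASTKD2, an RNA-binding protein of large-subunit assembly, was the one that rose in SU-DHL6 (0.92 ± 0.13, adjusted p = 6.62e-05).

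Of the 11 translation factors, 0 rose and 2 fell in OCI-LY3 with a median of 0.06 (1 higher and 3 lower at an unadjusted p under 0.05), and 4 rose and 1 fell in SU-DHL6 with a median of 0.32. These shares were 0% and 18.2% in OCI-LY3, against 22.2% each way, and 36.4% and 9.09% in SU-DHL6, against 20.4% and 22.8% of all tested genes. With total counts, 8 rose and 1 fell in SU-DHL6. The initiation factors MTIF2 and MTIF3 rose in SU-DHL6 by 0.61 ± 0.12 and 0.66 ± 0.17 (adjusted p = 0.00109 and 0.00586). The elongation factor TUFM fell in both lines, at -0.31 ± 0.10 in OCI-LY3 and -0.54 ± 0.10 in SU-DHL6 (adjusted p = 0.0217 and 6.48e-04). The elongation factor GFM1 fell in OCI-LY3 (-0.41 ± 0.12) and rose in SU-DHL6 (0.37 ± 0.12), and the difference was 0.79 ± 0.17. Of the mitochondrial ribosomal RNAs, MT-RNR1 of the small subunit rose in OCI-LY3 by 0.33 ± 0.10 (adjusted p = 0.0150), and MT-RNR2 of the large subunit was called in neither line (-0.08 ± 0.10 in OCI-LY3 and 0.16 ± 0.10 in SU-DHL6). The library kit is described as one for mRNA, and how far it captured these RNAs was not tested.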

How the data were processed

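Per the file headers, the deposited table holds, for each gene, the count and the FPKM in each of the 12 libraries, and columns were matched to libraries through their titles. Aligner, counter and strandedness were not given in the sources used here. Builds listed in the submitters' processing notes (GRCm38 and mm10) are of the mouse, whereas the table holds human Ensembl identifiers, and 77 of 78 members have the coordinates of GENCODE 29 on GRCh38. The FPKM values the authors deposited follow from the counts, total-count scaling and a length per gene (checked over 9162 genes), so they were used only to order levels.

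The deposited counts entered edgeR 4.0.16 under R 4.3.3 (filterByExpr by group, TMM, robust quasi-likelihood F test, 1 coefficient per group over 12 libraries, Benjamini-Hochberg adjustment over 16474 genes, threshold 0.05). The SE was obtained as log2 fold change over the root of F. The fit was tested on simulated data, where it recovered most changes of 1 log2 unit but few of 0.5. Far fewer genes were changed there than were called here, so these rates may not carry over. A member that was not called cannot be taken as unchanged. GC content and length are those of the longest GENCODE transcript, and exon sharing is from the same annotation. Alternatives were other scalings, filters and thresholds, DESeq2 1.42.0, limma-voom (limma 3.58.1), each line alone, a replicate block, each library left out, subunits by structure, and 3 settings chosen after seeing the data (GC and length offsets, members sharing no exon base, members under a 2-fold replicate range).

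Members and lists were chosen with earlier results of these data known. Named members are the 6 largest rises and falls called in each line, the 5 largest each way in the response difference and between untreated lines, the 3 highest and lowest by FPKM, the MRPS18 paralogs, MRPL10, MRPL11, MRPL12, MRPL58, MRPS12, MRPS30, MRPS36 and those with a 2-fold replicate range; other members were named after their values were seen. No promoter is reported for 9 members.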

Additional observations from a re-analysis of the deposited data

Results flagged for a closer look

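The response to selinexor differed between the lines for 26 members, by the test of the difference itself (SU-DHL6 minus OCI-LY3, edgeR's quasi-likelihood test with Benjamini-Hochberg adjustment over all genes tested); with total counts 21 were higher and 8 lower. Lower in SU-DHL6 by about 1 log2 unit or more were MRPL45 (-1.41), MRPL40 (-1.20), MRPL37 (-1.20), MRPL27 (-1.04) and MRPS16 (-1.02), followed by MRPS18A (-0.99), MRPL43 (-0.99), MRPL18 (-0.91) and MRPS33 (-0.81). Differences between 0.6 and 0.8 in size were those of MRPL54 (-0.76), MRPL48 (-0.74), MRPS18B (-0.71), MRPS28 (-0.70) and MRPS34 (-0.64). Smaller ones were MRPL21 (-0.59), MRPL14 (-0.56), MRPL9 (-0.54), MRPL28 (-0.53), MRPS6 (-0.50), MRPS15 (-0.47) and MRPS31 (-0.46). Higher in SU-DHL6 were MRPS9 (0.66), MRPL50 (0.62), MRPL42 (0.61), MRPS30 (0.51) and MRPL13 (0.49). At the threshold of 0.05 the call was made under every other alternative for 9 of the 26.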

How the results depend on the processing

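At the threshold of 0.05, calls held under every other alternative for 14 of 21 members in OCI-LY3, 15 of 34 in SU-DHL6, 9 of 26 for the response difference and 31 of 42 for the untreated lines. With total counts, 21 members fell in OCI-LY3, 25 rose and 15 fell in SU-DHL6, and 21 were higher and 8 lower in the difference. Subunit medians then were -0.17 (large) and -0.0685 (small) in OCI-LY3, 0.0048 and 0.13 in SU-DHL6, and 0.31 and 0.20 in the difference, by construction of the scaling, which moved the medians of all genes to -0.09, 0.27 and 0.35. With no filter on low counts 3 rose in SU-DHL6, and with each line alone 16 fell in OCI-LY3. At an adjusted p under 0.01, a stricter threshold by construction, 7 rose in OCI-LY3, 0 in SU-DHL6 (at 0.05, 7 by edgeR, DESeq2 and limma-voom each, and 9 unadjusted) and 2 were higher in the difference. With GC and length offsets 17 fell in OCI-LY3, the large minus small median was 0.0269 in SU-DHL6 and 0.16 for the untreated lines, and 3 values reversed: MRPL42 in the difference (-0.0152), MRPL28 (-0.33) and MRPL38 (-0.35) for the untreated lines. With subunits by structure the large minus small median of the untreated lines was 0.17. Over members sharing no exon base it was 0.0168 in OCI-LY3, 0.23 in the difference (small median -0.30) and 0.33 for the untreated lines, and over members under a 2-fold range -0.0244 in OCI-LY3. Other causes were not tested.

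Leaving out each library in turn gave 8 to 13 rises and 9 to 13 falls in OCI-LY3, 1 to 7 and 18 to 30 in SU-DHL6, 2 to 6 higher and 14 to 24 lower in the difference, and 17 to 22 and 17 to 21 for the untreated lines. Large medians ranged from -0.12 to -0.03 (OCI-LY3), -0.34 to -0.20 (SU-DHL6), -0.20 to 0.0105 (difference) and -0.0068 to 0.17 (untreated). Small medians ranged from -0.06 to 0.10, -0.18 to -0.03, -0.30 to -0.12 and -0.14 to -0.04, and large minus small from -0.16 to -0.018, -0.27 to -0.0449, 0.0821 to 0.22 and 0.12 to 0.27, in the same order.

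Same-numbered libraries did not deviate together (correlations of deviations from -0.16 to 0.07). These values over all tested genes show no strong shared deviation, but cannot tell whether same-numbered cultures were set up together. With the number as a replicate block 11 rose and 10 fell in OCI-LY3, 5 and 23 in SU-DHL6, 4 were higher and 19 lower in the difference, and 22 and 20 for the untreated lines. Depth limits the lowest members: MRPL1 in untreated SU-DHL6 had 3.93, 5.28 and 4.77 CPM.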
